A study of Arabidopsis thaliana with 3 samples.

Results

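Plant cells grow by letting a stretched wall yield while new polymer is laid down, and 3 kinds of protein are known for this work. Expansins of the EXPA and EXPB groups loosen the wall without cutting it, xyloglucan endotransglucosylase/hydrolases (XTH) cut and rejoin the xyloglucan that tethers cellulose, and cellulose synthases (CESA) spin the cellulose itself at the plasma membrane. Cellulose of the growing, primary wall and of the thickened, secondary wall of xylem is made by different CESA proteins. The genes described here are all nuclear protein-coding genes of Arabidopsis thaliana with an EXPA, EXPB, XTH or CESA symbol and number: 73 of 27444, made up of 24 EXPA, 6 EXPB, 33 XTH and 10 CESA genes. The symbol was the first name in the gene table for 66 of them and a synonym for 7, among them XTH22 (listed as TCH4), CESA3 (CEV1), CESA7 (IRX3) and CESA8 (IRX1).

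The study immunoprecipitated chromatin with an anti-GFP antibody from 7-day-old seedlings grown throughout in low blue light and sequenced it. It has 1 library each of the wild type Col-0 and of the lines OX TZP and OX ZFHD10, whose names read as overexpression lines of GFP fusions of the light-signalling protein TZP, which carries zinc fingers, and the zinc-finger homeodomain protein ZFHD10. The promoter of either fusion, the number of independent lines and the number of seedlings pooled are not given in the sources used here. Whole seedlings mix cell types that use different members of these families, and fewer bound cells cannot be told apart from weaker binding in each cell. Regions enriched over background, or islands, were taken from the deposited lists of OX TZP (11675 nuclear islands, 2028493 reads) and OX ZFHD10 (16122 islands, 4731495 reads), and Col-0 was not analysed here. With 1 library a line no value has a replicate check, so no test between lines or gene groups was made. Intervals cover counting error only.

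An island was credited to a gene when it overlapped the gene or the 1000 bp on either side by at least 1 bp. Of the 73 genes, 39 had an OX TZP island (53.4%, 95% Wilson interval 42.1 to 64.4), where 47.2% of all protein-coding genes did. An OX ZFHD10 island was found at 47 (64.4%, 52.9 to 74.4), against 65.9% of all protein-coding genes. Islands of each line were found at 32 (43.8%, against 36.7%), at 23 of them an island of one line overlapped one of the other (31.5%, against 26.6%), and 19 genes had no island (26.0%, against 23.5%). All these shares of the whole set lay close to those of all genes, with the background inside each interval. Over the gene itself, without flanks, 21 members had an OX TZP island (28.8%, 19.7 to 40.0) and 33 an OX ZFHD10 island (45.2%, 34.3 to 56.6), both below the 34.3% and 54.3% of all genes, so that in OX TZP the order of members and all genes turned with the flanks. The 39 genes were reached by 44 different OX TZP islands and the 47 by 63 different OX ZFHD10 islands, since 4 islands of each line were shared by neighbouring members and several members had more than 1.

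A longer gene has a longer stretch in which an island can fall, so the families are best read beside genes of like length. Among protein-coding genes under 1500 bp, 35.6% had an OX TZP island and 49.8% an OX ZFHD10 island, and among those over 5000 bp these shares were 66.6% and 80.5%. The median length was 1664 bp for EXPA, 1819 bp for EXPB, 1659 bp for XTH and 5424 bp for CESA. EXPA genes had islands least often of the 4 families, 10 of 24 in OX TZP (41.7%, 24.5 to 61.2) and 14 of 24 in OX ZFHD10 (58.3%, 38.8 to 75.5). EXPB genes had them in 4 of 6 cases in each line (66.7%, 30 to 90.3). XTH genes had them in 18 of 33 cases in OX TZP (54.5%, 38.0 to 70.2) and 22 of 33 in OX ZFHD10 (66.7%, 49.6 to 80.2), and CESA genes in 7 of 10 in each line (70.0%, 39.7 to 89.2). Genes of 1500 to 3000 bp, the class that holds 44 of the 73 members, had shares of 48.6% and 70.4%, inside the intervals of EXPA, EXPB and XTH in both lines. The interval of CESA likewise held the shares of genes over 5000 bp. In none of the 4 families did the interval exclude the share of genes of like length.

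**Figure D1:**
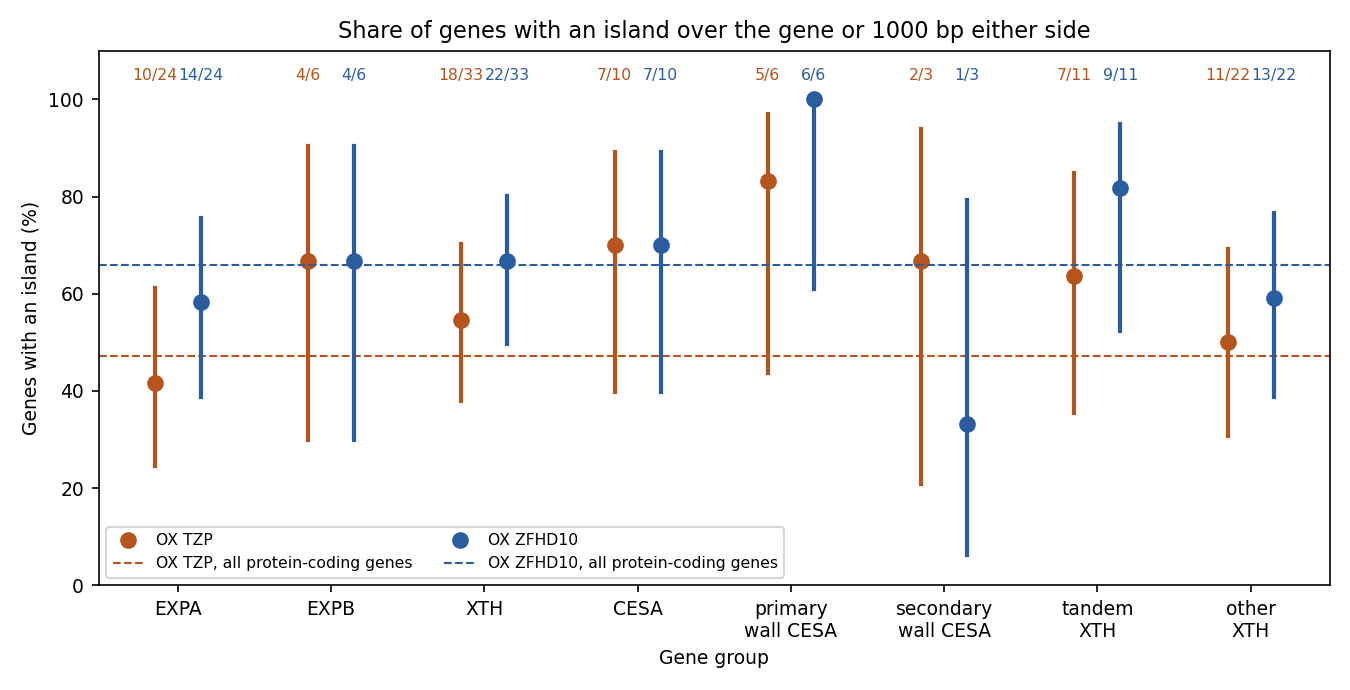
Percentage of genes with an island over the gene or 1000 bp either side (vertical axis, linear) in each family and subgroup (horizontal axis); points are shares, vertical lines 95% Wilson intervals (counting error), numbers above are genes with an island of all genes in the group, and dashed lines are the shares over all protein-coding genes (47.2% and 65.9%). The primary wall CESA genes have the highest shares in both lines, and all 6 of them have an OX ZFHD10 island.

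The 10 cellulose synthase genes were described by the wall they serve. CESA1, CESA3 and CESA6 encode the subunits of the main primary wall complex, and CESA2, CESA5 and CESA9 encode relatives of CESA6 that can take its place in some tissues, including the seed coat. Of these 6 genes, 5 had an OX TZP island (83.3%, 43.6 to 97.0) and 6 had an OX ZFHD10 island (100%, 61.0 to 100), and at 5 the islands of the lines overlapped. The shares of genes over 5000 bp, 66.6% and 80.5%, lay inside both intervals. Of the 3 secondary wall genes CESA4, CESA7 and CESA8, 2 had an OX TZP island (66.7%, 20.8 to 93.9) and 1 an OX ZFHD10 island (33.3%, 6.15 to 79.2). CESA4 is over 5000 bp long, but CESA7 and CESA8 fall among genes of 3000 to 5000 bp. The shares of that class, 56.3% and 76.4%, lay inside both intervals. CESA10, a close relative of CESA1, had none. The intervals of the primary and the secondary group overlap in both lines. Measured by bases, islands covered 46.9% of the flanks of the primary wall genes in OX ZFHD10 and 32.0% in OX TZP. These values were 28.1% and 13.3% at all genes over 5000 bp and 27.5% and 12.3% at those of 3000 to 5000 bp. At the secondary wall genes they were 6.02% and 17.3%. The gene bases of the primary wall genes went the other way in OX TZP, with 5.94% in islands against 11.6% at genes over 5000 bp. They were level in OX ZFHD10, with 6.40% against 5.92%. Over gene and flanks together, OX TZP islands covered 12.7% of the primary wall genes, against 12.0%, and OX ZFHD10 islands 16.9%, against 10.9%.

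The position of the islands was described after it had been seen. The gene table gives no strand, so ends are named by coordinate, and the upper end is the one with the higher position. Upper ends may thus be starts of some genes and ends of others, so they need not correspond. All 6 primary wall genes had an OX ZFHD10 island at the upper end or within 1000 bp beyond it (100%, 61.0 to 100), where 52.8% of all genes over 5000 bp did. An OX TZP island lay there at 5 of the 6 (83.3%, 43.6 to 97.0), against 26.2%. At the lower end the counts were 2 of 6 in OX ZFHD10, at CESA5 and CESA6 (33.3%, 9.68 to 70.0, against 51.5%), and 0 of 6 in OX TZP (0 to 39.0%, against 24.3%). At CESA3 (AT5G05170) the OX TZP island, at chr5:1535051-1536150, had 191 reads, or 174 reads per kb of island length (reads/kb; exact Poisson interval at 95%, 150 to 200). The OX ZFHD10 island at 1535101 to 1536400 had 599 reads, or 461 reads/kb (425 to 499). Read densities are ranked within a list only, since whole-library depth is unknown: the OX ZFHD10 island of CESA3 stood at percentile 98.0 of the nuclear islands of its list and the OX TZP island at percentile 71.6. CESA3 thus had the densest OX ZFHD10 island of the family.

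At CESA1 (AT4G32410) the islands of both lines began at the same position, 15646401 on chromosome 4, and ran to 15647850 in OX TZP (244 reads, 168 reads/kb, 148 to 191, percentile 62.0) and to 15647650 in OX ZFHD10 (419 reads, 335 reads/kb, 304 to 369, percentile 83.2). Each covered the last 444 bp of the gene and reached the neighbour AT4G32420. CESA6 (AT5G64740), whose mutants have short, swollen hypocotyls in the dark, was the only primary wall gene with islands at its middle and at both ends. Its OX TZP islands lay inside the gene at chr5:25884001-25884400 (78 reads, 195 reads/kb, 154 to 243, percentile 90.8) and over the upper end at 25886051 to 25888250 (368 reads, 167 reads/kb, 151 to 185). Its OX ZFHD10 islands lay over the lower end at 25879101 to 25881850 (824 reads, 300 reads/kb, 280 to 321, percentile 70.8) and the upper end at 25886651 to 25887600 (315 reads, 332 reads/kb, 296 to 370, percentile 82.3). The latter lay wholly within the OX TZP island at that end.

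The CESA6 relatives also had islands at or beyond their upper ends, CESA2 in OX ZFHD10 alone. Densities there were lower than at CESA1, CESA3 and CESA6, though in OX TZP the intervals overlap. At CESA5 (AT5G09870) the OX TZP island at chr5:3078451-3079200 (164 reads/kb, 136 to 196, percentile 52.5) lay wholly within the OX ZFHD10 island at 3078301 to 3079200 (280 reads/kb, 246 to 317, percentile 61.1). A second OX ZFHD10 island of 225 reads/kb (181 to 277) lay over its lower end. At CESA9 (AT2G21770), on chromosome 2, the islands ended together at 9291300 and lay 506 bp beyond the gene in OX TZP and 656 bp beyond it in OX ZFHD10, with 153 reads/kb (131 to 179, percentile 25.9) in OX TZP and 277 (243 to 313, percentile 59.1) in OX ZFHD10. CESA2 (AT4G39350) had an OX ZFHD10 island alone, at chr4:18302151-18303000 with 241 reads/kb (209 to 277, percentile 35), of which 42 bp lay in the gene. At CESA1, CESA2, CESA3 and CESA9 the island also overlapped the next gene, so these lists alone do not say to which of both genes it belongs. When each island was given only to the gene nearest its midpoint, 4 CESA genes had an OX TZP island, 3 primary and 1 secondary wall. An OX ZFHD10 island was then left at 4 CESA genes, all of the primary wall, so the genes of the lines were not all the same.

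CESA4, CESA7 and CESA8 encode the cellulose synthases of xylem, where mutants have collapsed vessels. CESA8 (AT4G18780) had no island. At CESA7 (AT5G17420) the OX TZP list had an island over the lower end, at chr5:5736601-5737450 with 142 reads/kb (118 to 170, percentile 6.03), and another beyond the upper end at 5742251 to 5743100 with 158 (132 to 187, percentile 36.9), which overlapped BBM, a transcription factor gene of embryo development. At CESA4 (AT5G44030) the islands of both lines lay outside the gene, 239 bp from it in OX TZP and 639 bp in OX ZFHD10, and both overlapped the neighbour AT5G44020. They had 143 reads/kb (121 to 167, percentile 6.42) and 313 (293 to 334, percentile 76.5). The OX TZP islands of CESA4 and CESA7 thus lay below the median of their list in each case. Of the 5 primary wall genes with an OX TZP island, 4 had one at or above it. Over all protein-coding genes with an OX TZP island this share was 53.1%, and these gene groups are too small to be set against it.

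**Figure D2:**
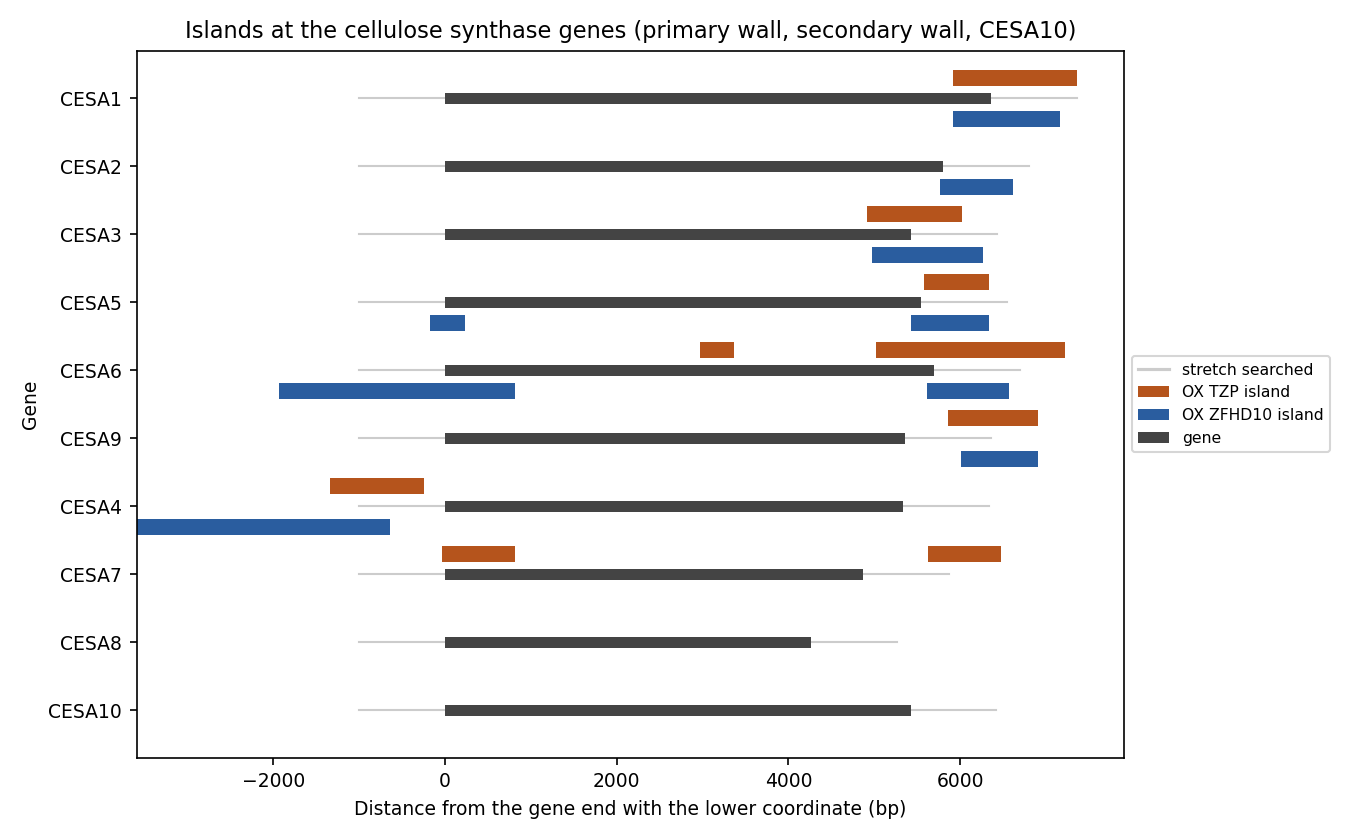
Islands of OX TZP (orange, above) and OX ZFHD10 (blue, below) along each CESA gene (dark bar), drawn to scale in bp from the gene end with the lower coordinate; the grey line is the stretch searched. Islands of both lines are stacked at or beyond the upper end of CESA1, CESA3, CESA5, CESA6 and CESA9, and CESA8 and CESA10 have none.

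Of the 33 XTH genes, 15 had islands of each line (45.5%, 29.8 to 62.0, against 36.7% of all protein-coding genes). OX TZP islands alone were found at 3, OX ZFHD10 islands alone at 7, and none at 8 (24.2%, 12.8 to 41.0, against 23.5%). Where they had islands, XTH genes had the highest densities among the families in OX TZP, with a median percentile of 63.0 for the densest island per gene, against 39.3 in EXPA and 53.1 over all protein-coding genes with an island. This median was 85.7 in the 7 XTH genes in tandem clusters, among which neighbours share islands, and 56.7 in the other 11. In OX ZFHD10 the median was 67.7 in XTH, 58.2 in EXPA, 76.5 in CESA and 60.1 over all genes. The densest OX TZP island of any member lay beside XTH31 (AT3G44990), which encodes an enzyme that mainly hydrolyses xyloglucan, at chr3:16446101-16446450 with 78 reads, or 223 reads/kb (176 to 278, percentile 97.4). An OX ZFHD10 island of 317 reads/kb (273 to 365, percentile 77.7) at 16446151 to 16446750 covered 85.7% of it, and neither came within 1000 bp of another protein-coding gene. Islands of both lines thus lay at the same place outside the lower end of XTH31.

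The densest OX ZFHD10 island of any member lay over the lower end of XTH7 (AT4G37800), at chr4:17773951-17775600 with 788 reads, or 478 reads/kb (445 to 512, percentile 98.5). It held the whole of an OX TZP island at 17774401 to 17774900 with 87 reads, or 174 reads/kb (139 to 215, percentile 72.3). At XTH27 (AT2G01850), which acts in the vessel cells of leaf veins, the upper end carried islands of both lines that shared 850 bp. The OX TZP island, at chr2:387201-388250 (166 reads/kb, 142 to 192, percentile 56.7), also overlapped the neighbour EMB975. The OX ZFHD10 island lay at 387101 to 388050 (344 reads/kb, 308 to 384, percentile 85.5). XTH7, XTH18, XTH19, XTH27 and XTH31 and the genes CESA1, CESA3, CESA5 and CESA6 were the 9 members at which islands of both lines shared at least 0.5 of the shorter one with both densities at or above the median of their list. XTH18 and XTH19 qualified through the same pair of islands, so the 9 are not independent, though the interval treats them so. The 9 members made up 12.3% of the 73 genes (6.62 to 21.8), where 9.03% of all protein-coding genes met both conditions. None of the 30 expansin genes was among them (0 to 11.4%), an interval that holds the share of all genes.

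XTH28 and XTH4 also had islands in the densest 10% of the OX ZFHD10 list, both outside the gene. XTH28 (AT1G14720), a gene of stamen filament growth, had an island of 377 reads/kb (348 to 408, percentile 91.3), 24 bp from the gene and over its neighbour AT1G14710. An OX TZP island covered 18.2% of that island but lay more than 1000 bp from XTH28 and was not credited to it. XTH4 (AT2G06850), a gene of stem tissues, had one of 373 (319 to 434, percentile 90.8), 898 bp from the gene, and no OX TZP island within reach. At XTH30 (AT1G32170) an OX ZFHD10 island of 4550 bp and 1334 reads (293 reads/kb, 278 to 309, percentile 68.1) covered the whole gene. The OX TZP island of XTH30, of 184 reads/kb (148 to 226, percentile 83.8), lay 970 bp beyond the gene, and 20.0% of it fell in the far edge of the OX ZFHD10 island.

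XTH15, XTH16 and XTH12 had OX TZP islands alone. At XTH15 (AT4G14130), a gene known to be induced by shade, an OX TZP island at chr4:8137251-8138350 with 176 reads (160 reads/kb, 137 to 185, percentile 42.8) lay inside the gene, covered 80.1% of it and also overlapped AT4G14120. A second OX TZP island of 170 reads/kb (136 to 210, percentile 65.3) lay 308 bp beyond XTH15. XTH33 (AT1G10550), whose product is predicted to be held at the membrane, had an OX TZP island inside the gene of 161 reads/kb (137 to 188, percentile 45.0) covering 50.6% of it, another beyond the upper end, and an OX ZFHD10 island of 274 (222 to 335, percentile 57.7) outside the lower end. At both genes the OX TZP islands inside the gene overlapped no OX ZFHD10 island. No island was found at XTH1, XTH3, XTH9, XTH10, XTH17, XTH20, XTH21 or XTH29.

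**Figure D3:**
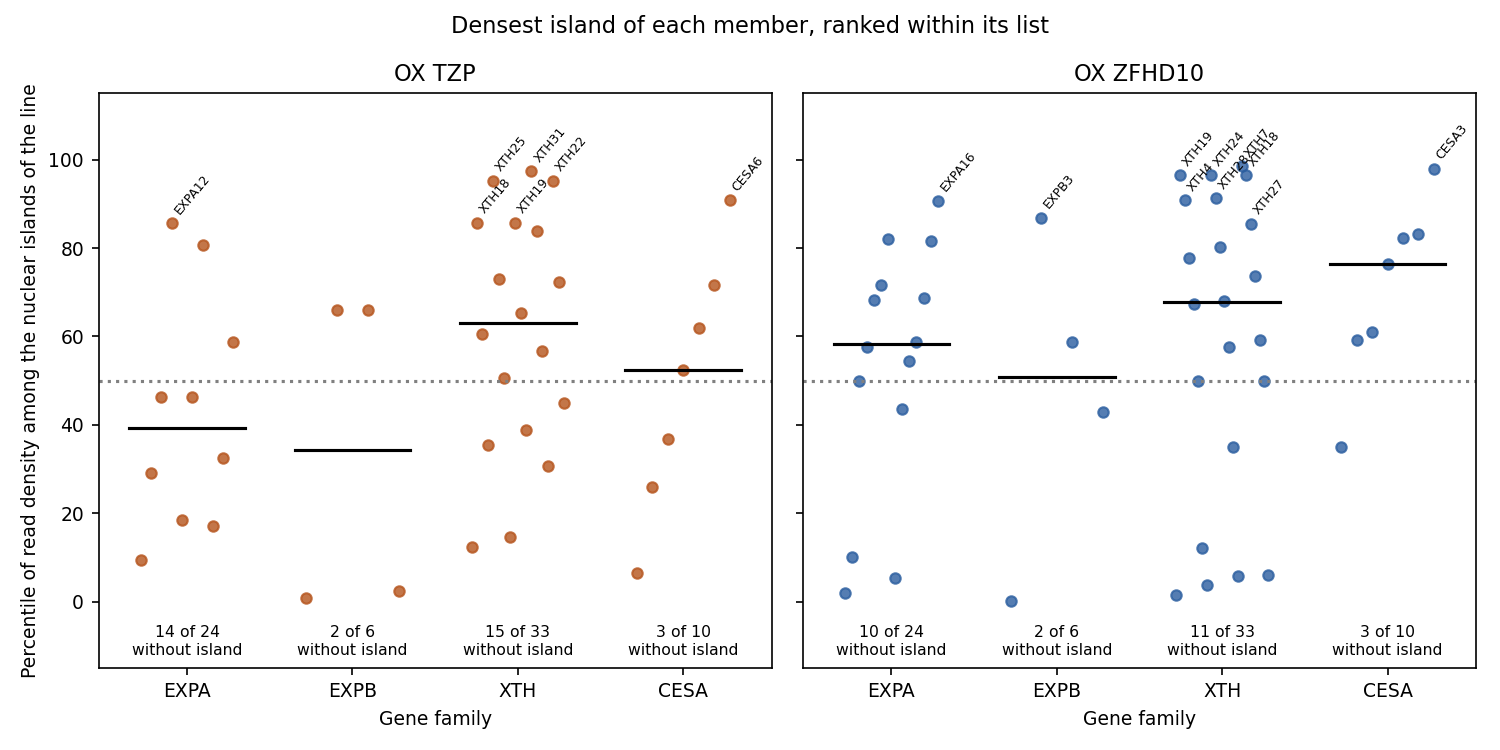
Percentile of the read density of the densest island of each gene among all nuclear islands of the same line (vertical axis, linear), by family (horizontal axis), with OX TZP left and OX ZFHD10 right. Each point is 1 gene, black lines are family medians, the dotted line is the median of the list, names mark genes at percentile 85 or above, and points for neighbours that share an island have the same height, as XTH18, XTH19 and XTH24 do in OX ZFHD10.

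Of the XTH genes, 11 lay in 4 tandem clusters, defined as genes at most 10 kb from the next one of the family. In them, 7 of 11 genes had an OX TZP island (63.6%, 35.4 to 84.8) and 9 of 11 an OX ZFHD10 island (81.8%, 52.3 to 94.9), and 6 had overlapping islands of both lines. Among the other 22 XTH genes these counts were 11 (50%, 30.7 to 69.3), 13 (59.1%, 38.7 to 76.7) and 5, and the intervals overlap. The 7 clustered genes shared 8 OX TZP islands and the 9 genes shared 9 OX ZFHD10 islands, so these counts are not independent. With each island given only to the nearest gene, the clustered genes with an island numbered 4 in OX TZP and 5 in OX ZFHD10. Genes under 1500 bp had shares of 35.6% and 49.8% and those of 1500 to 3000 bp 48.6% and 70.4%, and the clustered genes have a median of 1513 bp. Overlapping islands of both lines were found at 18.0% and 28.9% of genes in these classes and at 26.6% of all protein-coding genes. Counted in bases, islands covered 29.3% of the clustered genes and 31.6% of their flanks in OX TZP and 34.3% and 54.8% in OX ZFHD10. At the other XTH genes the values were 9.52% and 13.3%, and 11.6% and 29.1%, and over all protein-coding genes they were 12.1% and 11.8%, and 11.9% and 23.7%. Flanks of neighbours overlap, so a base in an island can count for more than 1 gene.

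The clusters differed among themselves. In OX TZP, islands covered 62.9% of the gene bases of the cluster of XTH24, XTH18 and XTH19, 35.5% of those of the cluster of XTH12, XTH13, XTH25 and XTH22, and none in the other 2. In OX ZFHD10 these values were 60.2% and 33.1%, with 35.2% at XTH23 and XTH14 and none at XTH1 and XTH2. In the cluster of XTH24, XTH18 and XTH19, which spans 11033 bp on chromosome 4, all 3 genes had overlapping islands of both lines. XTH24 (AT4G30270), first described as the meristem gene MERI5, was covered whole by an OX TZP island at positions 14818701 to 14821050 with 394 reads (168 reads/kb, 152 to 185, percentile 60.6). From within XTH24 to beyond XTH18 (AT4G30280) ran an OX ZFHD10 island of 8400 bp at 14820251 to 14828650, with 3631 reads, or 432 reads/kb (418 to 447, percentile 96.5). It was the longest island at any of the 73 genes, against a median of 800 bp and a longest of 10750 bp in its list.

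The OX TZP list broke that same stretch into several islands. One at 14824901 to 14827100, with 160 reads/kb (143 to 177, percentile 41.5), covered 92.4% of XTH18. Another at 14827401 to 14828500, between XTH18 and XTH19 (AT4G30290), had 205 reads, or 186 reads/kb (162 to 214, percentile 85.7), and lay wholly inside the long OX ZFHD10 island. XTH18 and XTH19 encode close relatives used mainly in roots. A further OX TZP island at 14822851 to 14824050 with 166 reads/kb (144 to 191), in the gap of 5161 bp between XTH24 and XTH18, lay over 1000 bp from both and was therefore credited to neither. XTH19 itself was free of OX TZP islands and carried an OX ZFHD10 island of 286 reads/kb (241 to 337) over its upper end.

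The cluster of XTH12, XTH13, XTH25 and XTH22 spans 8360 bp on chromosome 5, and its islands lay mostly at the XTH22 side. XTH22 (AT5G57560), known as TCH4, is induced by touch, brassinosteroid and temperature shifts. Its first 86.3% by coordinate lay in an OX TZP island at positions 23305751 to 23308450 with 563 reads, the most of any OX TZP island at a member, or 209 reads/kb (192 to 226, percentile 95.3). The same island covered 41.6% of XTH25 (AT5G57550). XTH22 was covered whole by an OX ZFHD10 island at 23306551 to 23309750 with 839 reads, or 262 reads/kb (245 to 281, percentile 49.9), which overlapped 70.4% of the OX TZP island. Between XTH13 (AT5G57540) and XTH25 an OX ZFHD10 island of 178 reads/kb (153 to 206, percentile 1.45) touched both genes, and XTH12 (AT5G57530) had only an OX TZP island outside its lower end, of 155 (130 to 184, percentile 30.7).

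The other clusters held fewer or weaker islands. XTH23 and XTH14, 363 bp apart on chromosome 4, had no OX TZP island and 3 OX ZFHD10 islands between percentiles 2.78 and 35. Of these, 1 at positions 13129151 to 13130350, with 194 reads/kb (170 to 221), lay across the gap and reached into both genes. XTH1 (AT4G13080) had none, and XTH2 (AT4G13090), 3139 bp from it, had an OX TZP island of 163 reads/kb (138 to 191, percentile 50.6) outside the gene that held the whole of an OX ZFHD10 island of 195 (159 to 235, percentile 5.96).

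**Figure D4:**
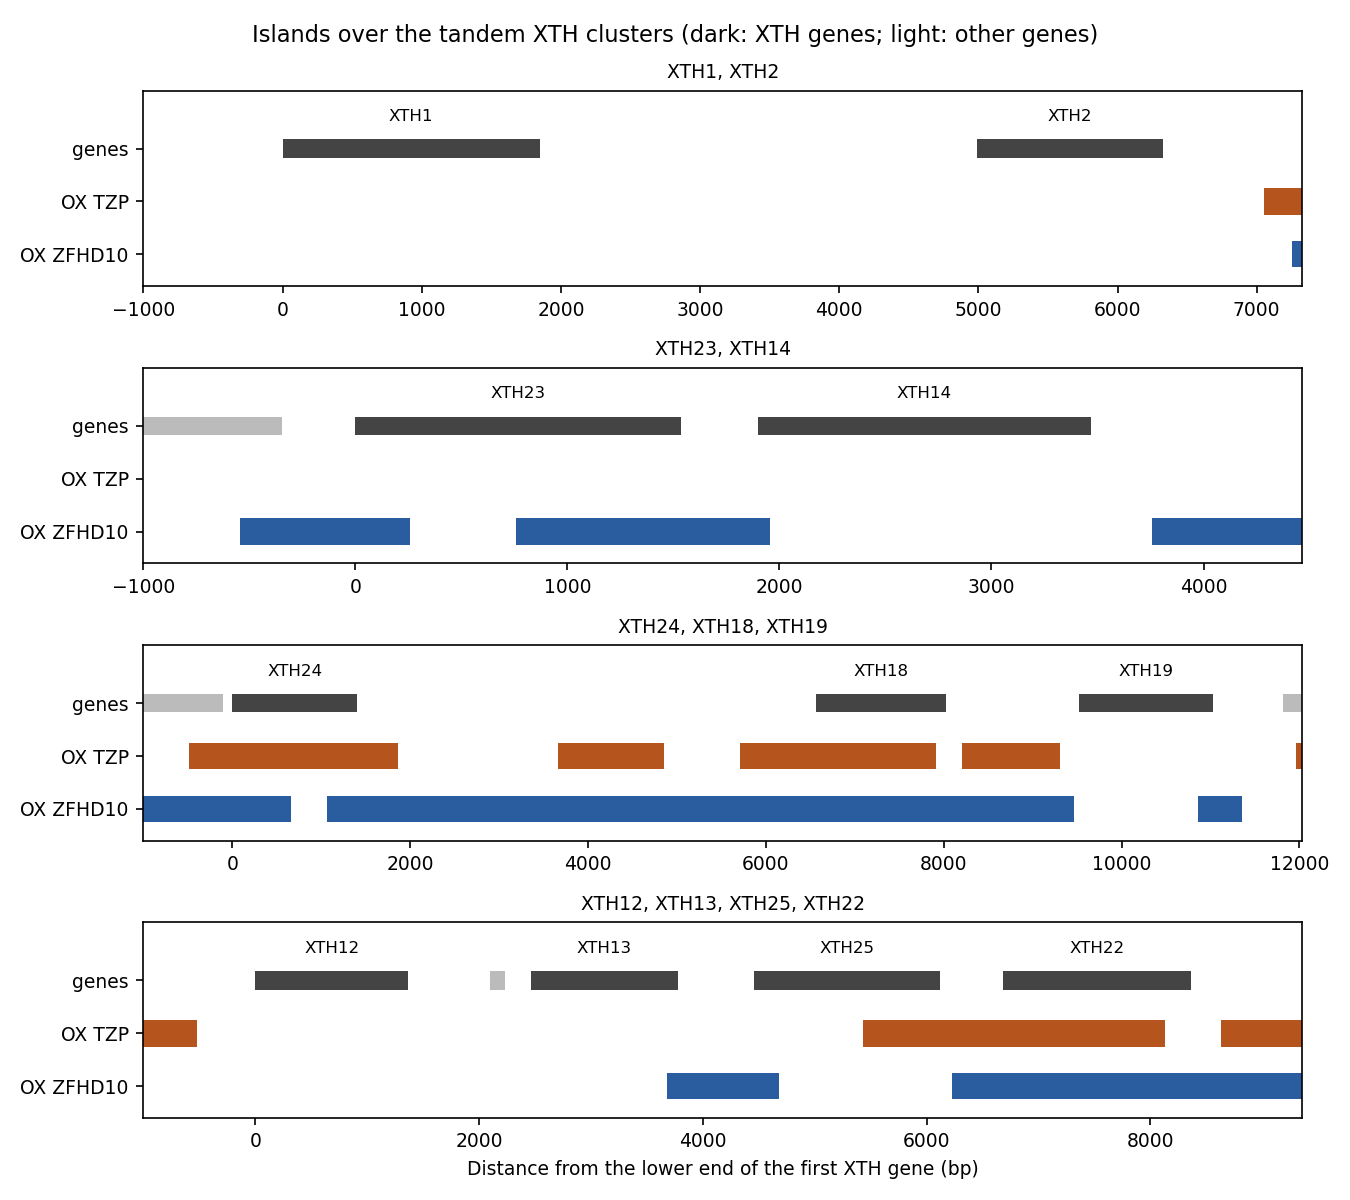
The 4 tandem XTH clusters with 1000 bp on either side, drawn in bp from the lower end of the first XTH gene: XTH genes (dark) and other genes (light) above, OX TZP islands (orange) and OX ZFHD10 islands (blue) below, cut off at the panel edge. The 8400 bp OX ZFHD10 island spans from XTH24 past XTH18, and the pair XTH23 and XTH14 has no OX TZP island.

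Expansin genes had islands of each line at 11 of 30 (36.7%, 21.9 to 54.5), the same share as over all protein-coding genes. At 6 of these the islands of the lines overlapped (20.0%, 9.51 to 37.3, against 28.9% of genes of 1500 to 3000 bp and 18.0% of those under 1500 bp). Among CESA genes this count was 6 of 10 (60.0%, 31.3 to 83.2, against 35.1% of genes over 5000 bp). Islands covered 7.26% of EXPA flanks in OX TZP and 18.8% in OX ZFHD10. The OX TZP value was the lowest of the 4 families, and both lay below the 11.8% and 23.7% of all genes. At the 5 tandem EXPA genes the flank values were 2.79% and 0%, and at the other 19 they were 8.44% and 23.7%. In OX ZFHD10 the other 19 thus equalled all genes. EXPA gene bases were in islands to 9.71% in OX TZP, against 12.1%, and to 14.6% in OX ZFHD10, against 11.9%. Over gene and flanks together, EXPA had 8.38% against 12.0% in OX TZP and 16.8% against 17.3% in OX ZFHD10. None of the 10 EXPA genes with an OX TZP island had one in the densest 10% of its list, and 1 of 14 did in OX ZFHD10, where 10.6% and 14.0% of all genes with an island did.

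EXPA6 (AT2G28950) had the largest share of its bases in OX ZFHD10 islands among the expansin genes, 75.1%. An OX TZP island at chr2:12431401-12432600 with 217 reads (181 reads/kb, 158 to 207, percentile 80.6) lay inside the gene and covered 48.8% of it. Of this island 87.5% lay in an OX ZFHD10 island at 12431551 to 12433100 with 395 reads (255 reads/kb, 230 to 281, percentile 45.0), also inside the gene. Other OX ZFHD10 islands lay outside the lower end (213 reads/kb, 183 to 246) and over the upper end (329 reads/kb, 292 to 369, percentile 81.6). EXPA3 (AT2G37640) likewise had islands of both lines sharing part of the gene, with 150 reads/kb (123 to 182) in OX TZP and 256 (220 to 296) in OX ZFHD10. EXPA12 and EXPA20 were the other EXPA genes with overlapping islands. The densest OX TZP island of the family, of 186 reads/kb (160 to 216, percentile 85.6), lay beyond EXPA12 (AT3G15370) and over its neighbour AT3G15380.

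The densest OX ZFHD10 island of an expansin gene lay outside EXPA16 (AT3G55500), at chr3:20573651-20574050 with 149 reads, or 372 reads/kb (315 to 437, percentile 90.7), while the OX TZP island of EXPA16 lay over the opposite end with 155 (134 to 178, percentile 29.0). At EXPA13 (AT3G03220) an OX ZFHD10 island of 331 reads/kb (288 to 378, percentile 82.1) lay over the upper end and an OX TZP island of 149 (131 to 170, percentile 17.1) lay 685 bp beyond it. EXPA7 (AT1G12560), an expansin gene of root hairs, also had the lines at opposite ends, with 145 reads/kb (127 to 165) in OX TZP and 293 (259 to 331) in OX ZFHD10. EXPA4 (AT2G39700) was arranged in the same way, with 167 reads/kb (136 to 203, percentile 58.7) in OX TZP and 181 (156 to 209, percentile 1.90) in OX ZFHD10. At EXPA4, EXPA7, EXPA13 and EXPA16, then, islands of both lines were credited to the gene but lay at different places. The OX TZP islands of EXPA4 and EXPA13 and the OX ZFHD10 island of EXPA16 lay wholly outside the gene. They overlapped the neighbours AT2G39690, AT3G03230 and AT3G55490, in that order. At EXPA7 the OX TZP island also overlapped AT1G12570 and the OX ZFHD10 island HPR3.

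EXPA1, EXPA2, EXPA5, EXPA8, EXPA9 and EXPA11 had OX ZFHD10 islands alone. EXPA1 (AT1G69530), which acts in guard cells, had 1 of 253 reads/kb (226 to 282, percentile 43.6) over its lower end. EXPA9 (AT5G02260) had 1 of 301 (274 to 330, percentile 71.6) over the lower end and 1 of 171 (147 to 198, percentile 0.723) inside the gene. EXPA8 (AT2G40610) had islands of 253 and 262 reads/kb over its ends. No island was found at EXPA10, a gene of leaf growth, EXPA14, EXPA15, EXPA17, a gene of lateral root emergence, or EXPA18, a gene of root hairs.

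The tandem EXPA genes had few islands. EXPA21, EXPA22, EXPA23, EXPA25 and EXPA24 lie within 14363 bp of chromosome 5, together with AT5G39290, which the table lists as EXP26 and the symbol rule therefore left out. No OX ZFHD10 island reached any of the 5 genes (0 of 5, Wilson interval 0 to 43.4%), where 14 of the other 19 EXPA genes had one (73.7%, 51.2 to 88.2). The tandem genes are shorter, with a median of 1195 bp against 1866 bp, and 49.8% of all genes under 1500 bp had an OX ZFHD10 island. EXPA24, at 1574 bp, falls in the next length class, where the share was 70.4%. The 5 genes are neighbours 421 to 5575 bp apart, so the stretches searched partly overlap. The interval treats the genes as independent and is too narrow to be set against these shares. AT5G39290 had no island of either line. A single OX TZP island at positions 15739201 to 15739950, with 121 reads or 161 reads/kb (134 to 193, percentile 46.2), lay inside EXPA24 and came within reach of EXPA25. EXPA21, EXPA22 and EXPA23 had none.

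Of the 6 beta-expansin genes, the EXPB group, 1 had an OX TZP island over the gene itself (16.7%, 3.01 to 56.4) and 2 an OX ZFHD10 island (33.3%, 9.68 to 70.0), intervals that hold the 34.3% and 54.3% of all protein-coding genes. EXPB2 and EXPB6 lie 201 bp apart on chromosome 1 and shared an OX TZP island at positions 24429151 to 24431050 with 324 reads, or 171 reads/kb (152 to 190, percentile 66.1), which covered 84.6% of EXPB6 (AT1G65681). EXPB2 (AT1G65680) had a further OX TZP island of 166 reads/kb (143 to 192, percentile 58.2) and no OX ZFHD10 island, and the OX ZFHD10 island of EXPB6, 930 bp from it, had 158 (139 to 179, percentile 0.0527). EXPB3 (AT4G28250) had an OX ZFHD10 island of 861 reads, or 351 reads/kb (328 to 376, percentile 86.9), at chr4:13997001-13999450, which held the whole of an OX TZP island of 132 (114 to 153, percentile 0.724). Both lay outside EXPB3 and over its neighbour AT4G28240. EXPB4 (AT2G45110) had an OX TZP island of 137 reads/kb (117 to 161, percentile 2.33) and OX ZFHD10 islands of 252, 200 and 192, EXPB5 (AT3G60570) an OX ZFHD10 island alone of 276 (215 to 349, percentile 58.7), and EXPB1 none.

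**Figure D5:**
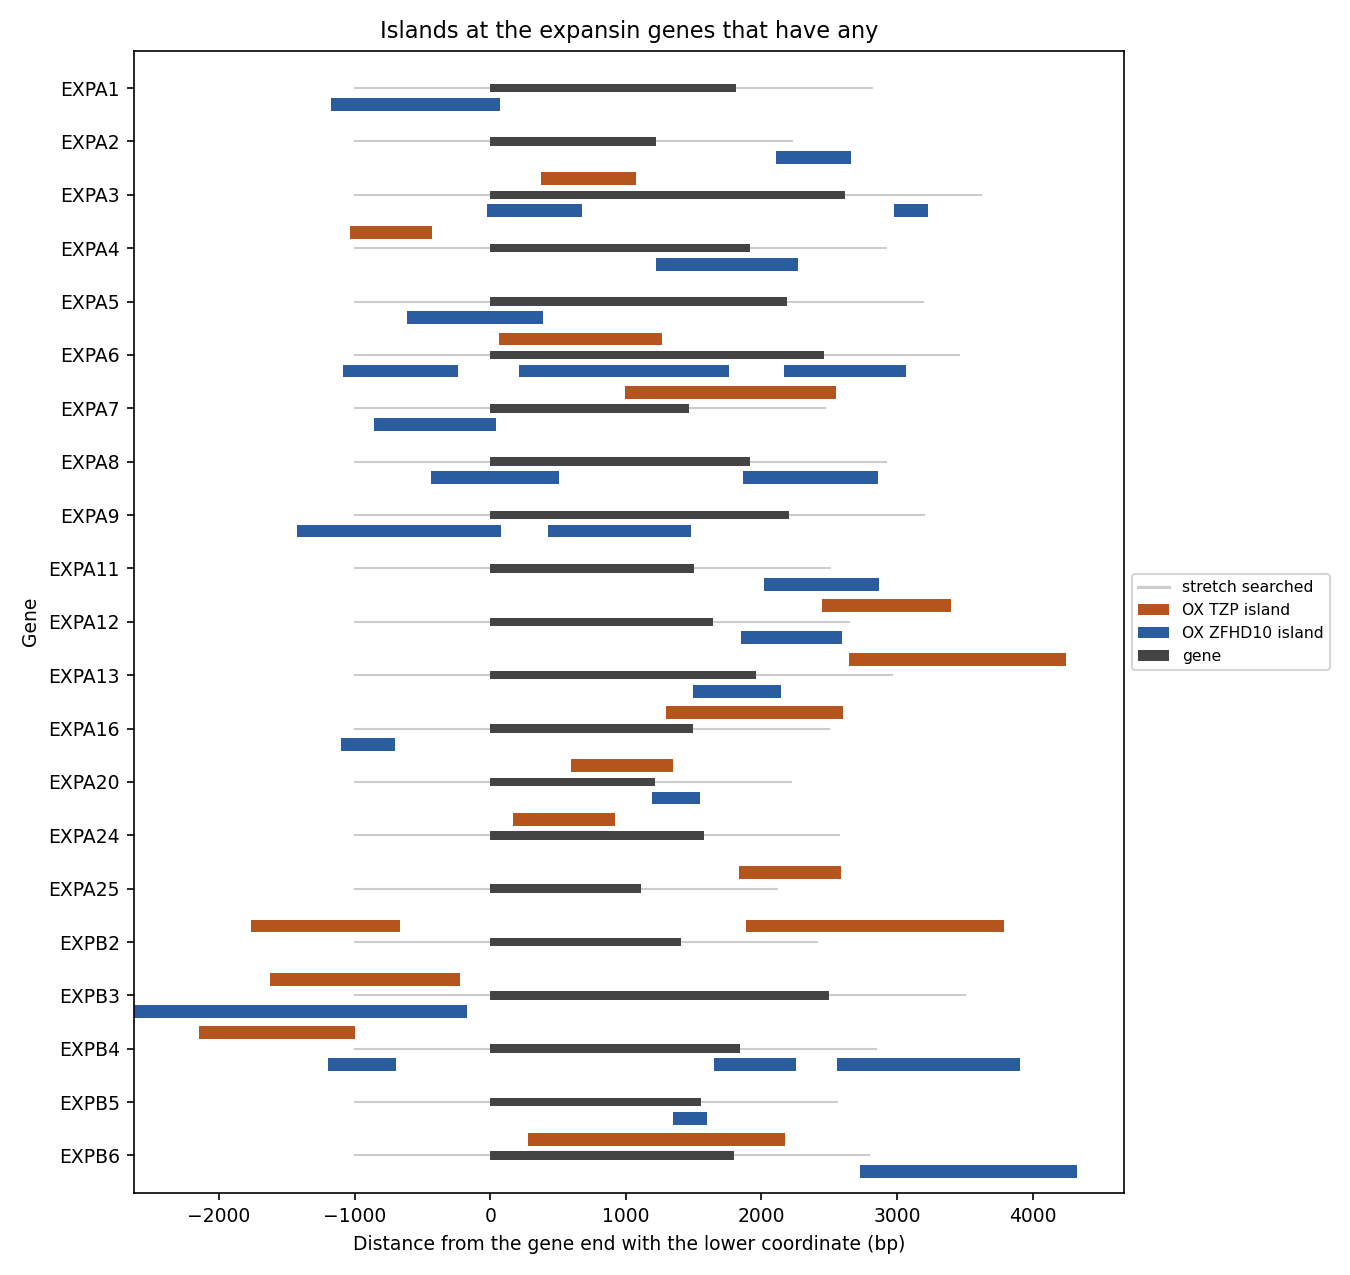
Islands of OX TZP (orange, above) and OX ZFHD10 (blue, below) at the 21 expansin genes that have any, drawn in bp from the gene end with the lower coordinate; dark bars are genes and grey lines the stretch searched. The lines lie at opposite ends of EXPA4, EXPA7 and EXPA16 and share the interior of EXPA6.

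Positions were counted per pair of island and gene, so an island shared by neighbours counts more than once. Across the 73 genes, OX TZP islands were wholly outside the gene in 26 of 48 pairs, more often than over all protein-coding genes (54.2%, against 33.6%). They were inside it less often, in 6 (12.5%, against 24.4%). OX ZFHD10 islands were outside in 27 of 68 pairs (39.7%, against 27.7%) and inside in 3 (4.41%, against 4.16%). Members stand farther from their neighbours than genes in general, with a median summed distance to both neighbours of 3317 bp against 1857 bp. They are also shorter, with a median of 1813 bp against 2078 bp. Whether distance or length bears on the positions was not tested. Members with islands of each line had a median summed distance of 3214 bp, and those with no island 3317 bp.

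Genes that act beside these families were counted in the same way. Of 20 listed genes of cellulose deposition, xyloglucan synthesis and the expansin-like group, 16 were found in the gene table. Of these, 13 had an OX TZP island (81.2%, 57.0 to 93.4, against 47.2% of all protein-coding genes). An OX ZFHD10 island was found at 12 (75.0%, 50.5 to 89.8, against 65.9%). Overlapping islands of both lines were found at 9 (56.2%, 33.2 to 76.9, against 26.6%). The 16 genes run from 783 bp to 8520 bp and were not set beside genes of like length. Across all genes, the OX TZP share was 35.6% under 1500 bp and 66.6% over 5000 bp. The share with overlapping islands was 18.0% and 35.1%. KOR1, which encodes an endoglucanase that works with the cellulose synthases, carried an OX TZP island of 197 reads/kb (163 to 236, percentile 91.7) at chr5:20200151-20200750 and an OX ZFHD10 island of 403 (365 to 444, percentile 94.2) at 20200201 to 20201200. XXT1, a xyloglucan xylosyltransferase gene, had 159 reads/kb (142 to 177, percentile 39.0) and 501 (460 to 545, percentile 99), denser in OX ZFHD10 than any of the 73 members. XLT2, a galactosyltransferase gene, had 264 (237 to 293, percentile 99.1) in OX TZP and 217 (191 to 246, percentile 18.3) in OX ZFHD10. COB, CSI1, CTL1, XXT2, XXT5 and EXLA1 also had overlapping islands, MUR3 and EXLA2 had islands of each line that did not overlap, FUT1 and EXLA3 had OX TZP islands alone, CSLC4 OX ZFHD10 islands alone, and TED6 and EXLB1 none. EXLA1 and EXLA3 are neighbours and shared an OX TZP island of 157 reads/kb (133 to 184), so the counts are not independent as the intervals assume. CC1, CC2, STL1 and STL2 were not matched.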

How the data were processed

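Per the labels' protocols, formaldehyde-fixed chromatin was immunoprecipitated with anti-GFP and sequenced in single-end reads. Tools named in the submitters' processing notes, without roles, are SICER 1.1, Bowtie 0.12.7, cutadapt 1.5 and HOMER, and the named build is TAIR10. Each deposited value is the read count of an island without scaling, a reading taken from the whole-number values and SICER's usual format. According to the lists' names, windows of 50 bp were joined over gaps up to 200 bp at a false discovery rate of 0.1, which admits weak islands. The control library and the handling of duplicate reads are not given in the sources used here.

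Positions were counted from 1, reads divided by island length in kb, and organelle islands left out. Genes came from a RefSeq table of TAIR10.1, which has no strand or exons, and no gene coordinate of it is printed. OX ZFHD10 midpoints fell in genes least often at an offset of 0 bp on all 5 chromosomes when shifted by up to 3000 bp. OX TZP midpoints had no such minimum at 0 bp on any chromosome, so this check does not bear on that list. Island sequences and promoter motifs were not analysed here. The crediting of islands to genes was checked on simulated islands planted at 200 genes, all of which were called. Wilson and exact Poisson intervals at 95% treat reads and islands as independent, though PCR copies are not. Islands at members held at least 78 (OX TZP) or 69 (OX ZFHD10) reads. The members, gene lists and rule for named genes (every CESA and tandem XTH gene, the 3 densest genes per family and line, and well-overlapping pairs) were chosen with earlier results of these data known. Other members named were chosen after their values were seen. Python 3.11.15 with pandas 2.3.3 and SciPy 1.17.1 was used.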

Additional observations from a re-analysis of the deposited data

How the results depend on the processing

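Of 164 values recomputed under other settings, 111 stayed within 1.5 times the reported count or value and 53 moved further, all of them to lower counts. By construction each of these settings searched a shorter stretch, kept fewer islands or credited each island to fewer genes. Except for islands over the gene alone, the share of all genes under these settings is not given here. The other counts below thus have no background beside them. With islands over the gene alone, the members with an OX TZP island numbered 21 (28.8%, below the 34.3% of all genes, whereas with flanks 53.4% lay above 47.2%), those with islands of each line 13 and those with overlapping islands 10. The OX TZP counts were then 6 in EXPA, 1 in EXPB, 10 in XTH, 4 in CESA, 3 in primary wall CESA, 1 in secondary wall CESA and 4 in tandem XTH, and the OX ZFHD10 counts 2 in EXPB and 0 in secondary wall CESA. With flanks of 500 bp, 21 members had islands of each line and 0 secondary wall CESA genes an OX ZFHD10 island. With the island's midpoint required in the stretch, 20 had islands of each line, 13 overlapping ones, EXPB had 2 and 2, and secondary wall CESA 0 in OX ZFHD10.

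With only islands at or above the median density, the counts were 21 in OX TZP, 31 in OX ZFHD10, 13 for each line and 12 overlapping. By family, OX TZP then had 3 in EXPA, 2 in EXPB, 4 in CESA and 0 in secondary wall CESA, and OX ZFHD10 had 9 in EXPA, 2 in EXPB and 14 in XTH. With only islands at or above the median read count, 30 members had an OX ZFHD10 island, 19 islands of each line and 14 overlapping ones, with 5 EXPA and 1 secondary wall CESA gene in OX TZP and 6 EXPA and 14 XTH genes in OX ZFHD10. With each island given to the nearest gene only, the counts were 22 in OX TZP, 31 in OX ZFHD10, 14 for each line and 12 overlapping. OX TZP then had 5 in EXPA, 2 in EXPB, 11 in XTH, 4 in CESA, 3 in primary wall CESA, 1 in secondary wall CESA and 4 in tandem XTH. OX ZFHD10 had 9 in EXPA, 2 in EXPB, 4 in CESA, 0 in secondary wall CESA and 5 in tandem XTH.

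No paired analysis was possible because each line has 1 library, which also leaves no replicate to leave out. The rank in place of the density was not run as an alternative value, since percentiles stand beside the densities. Without the depth of the whole libraries and a control, the absence of an island says only that none was called, and densities were not compared between lines.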
